A study of Homo sapiens with 6 samples.

Results

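A set of 8 regulators of transcription that adjust inflammatory gene programmes was followed in human keratinocytes exposed to a streptococcal protein: CEBPB, NFIL3, KDM6B, NR3C1, NRIP1, HIVEP1, HIVEP2 and NFAT5. The cells were HaCaT, an immortalised line of human skin keratinocytes, grown in medium free of serum and calcium. Control cells received no addition, and treated cells received M1 protein, a virulence factor on the surface of Streptococcus pyogenes, at 5 µg/ml for 6 h. RNA of 3 control and 3 M1 samples, selected from 12 after RNA integrity had been assessed, was hybridised to Affymetrix Human 2.0 ST arrays. The labels call the replicates biological but do not say whether they came from separate cultures or days, and all come from 1 cell line. The 8 genes were taken by symbol from the authors' deposited table of 497 probe sets that differ between the 2 groups, out of 22119 probe sets with a signal, and each is represented by 1 probe set. Because the table was selected on the same 6 arrays, and these genes were picked from it with their values known, the differences below describe these samples and carry no test.

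These proteins act at different points of gene control. C/EBP-beta and NFIL3 are basic leucine zipper proteins that bind DNA as dimers, KDM6B removes a repressive methyl mark from histone H3, and the glucocorticoid receptor, encoded by NR3C1, represses many inflammatory genes once bound by hormone. NRIP1 is a cofactor of nuclear receptors, HIVEP1 and HIVEP2 are large zinc finger proteins that bind kappaB-like sequences, and NFAT5 carries a Rel-type DNA-binding domain related to that of NF-kappaB. Keratinocytes are themselves a source of chemokines and cytokines in skin, and some of these regulators promote such genes while others restrain them.

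All 8 genes had a higher signal with M1 protein, from 1.71-fold for NR3C1 to 5.11-fold for KDM6B. In each of the 8 the lowest M1 sample lay above the highest control sample, which was also so for 18.6% of all 22119 probe sets, and 1.37% of all probe sets were in the authors' table as higher. As the table was selected for this difference, nothing follows from these counts. The arrays measured RNA of whole cultures, so more RNA per cell and a change in which cells were present cannot be told apart. The median log2 change was 1.14 over the 8 genes, 1.27 over the 303 higher probe sets of the table and 0.00315 over all probe sets. The array medians ran from 6.93 to 7.01 on the log2 scale, and every signal of the 8 genes lay well above the 25th percentile of its array, 5.71 to 5.79. Across probe sets, arrays of the same group correlated with Pearson's r of 0.994 to 0.997, and arrays of different groups with r of 0.977 to 0.981. Of 10 keratinocyte markers, KRT17 and LAMB3 were in the table and both were higher with M1 protein, 2.15-fold and 1.68-fold; the table held 0 of 16 markers of fibroblasts, leukocytes, endothelium and melanocytes. The table lists probe sets that differ between the groups, so a marker's presence or absence there does not show which cells were cultured. Other probe sets carry no names here, so the cell type was not checked.

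**Figure D1:**
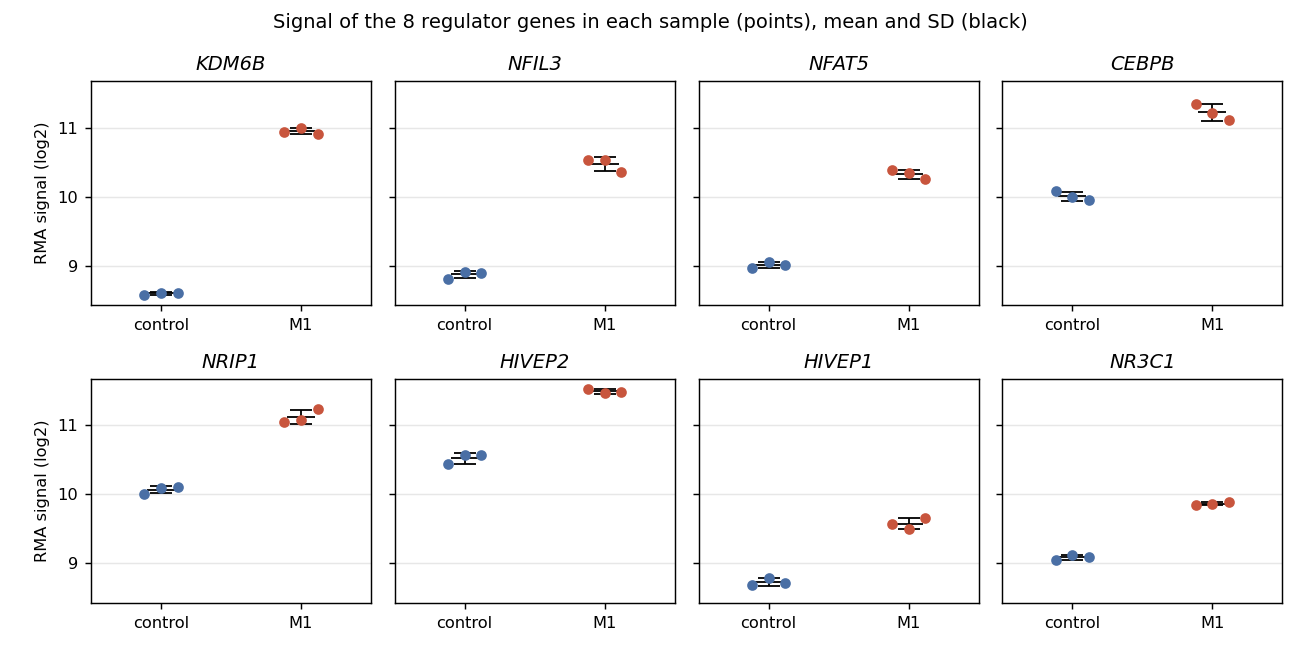
Log2 RMA signal (vertical axis) of each gene in the 3 control and 3 M1 samples, with points for samples and black bars for the mean and SD. In each panel all M1 points lie above all control points, with the means farthest apart for KDM6B (8.60 and 10.95) and nearest for NR3C1 (9.09 and 9.86).

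CEBPB encodes C/EBP-beta, a factor that drives acute phase and cytokine genes. Its log2 signal was 10.08, 9.99 and 9.94 in the control samples and 11.34, 11.21 and 11.11 in the M1 samples. The groups stood 1.03 apart at their closest, and the M1 samples differed more among themselves (SD 0.12, n = 3) than the control samples did (SD 0.07, n = 3). The mean difference was 1.22 ± 0.08 (SE) on the log2 scale, 2.32-fold. The authors' deposited table placed its probe set, 16914812, on chromosome 20, plus strand, from 48807120 to 48809227, a span of 2.11 kb, the shortest of the 8 genes. No source used here names the build of the coordinates in that table.

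NFIL3, also known as E4BP4, encodes a basic leucine zipper protein that mostly represses its targets, shapes lymphocyte lineages and takes part in the circadian clock. Its log2 signal was 8.81, 8.91 and 8.90 in the control samples and 10.52, 10.54 and 10.35 in the M1 samples. The M1 sample at 10.35 was the lowest of its group and still lay 1.44 above the highest control. The mean difference was 1.60 ± 0.07 (SE) on the log2 scale, 3.03-fold, second among the 8 genes. Its probe set, 17095703, lies on the minus strand of chromosome 9 from 94171327 to 94186144 in the authors' deposited table.

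RefSeq promoter windows of assembly GRCh38.p14, each 250 bases before to 50 after an annotated start, were matched for 6 of the 8 genes, with 18 starts in all. Of these, 4 are shown: the windows of CEBPB and NFIL3, the leucine zipper genes, with the most kinds of match, that of NRIP1 with E4BP4 letters and that of HIVEP2 with C/EBP letters. The other windows with C/EBP letters or a CRE core, of NR3C1 and NRIP1, are described without their sequence. Capitals mark the matches, and each is written on the strand of its gene.
CEBPB promoter, chr20:50190580-50190879, plus strand: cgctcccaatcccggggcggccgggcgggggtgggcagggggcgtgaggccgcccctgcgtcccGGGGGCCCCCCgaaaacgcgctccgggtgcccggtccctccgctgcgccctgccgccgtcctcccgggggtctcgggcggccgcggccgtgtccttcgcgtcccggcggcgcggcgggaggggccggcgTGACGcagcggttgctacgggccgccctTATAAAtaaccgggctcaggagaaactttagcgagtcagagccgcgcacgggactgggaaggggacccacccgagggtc
NFIL3 promoter, chr9:91424577-91424876, minus strand: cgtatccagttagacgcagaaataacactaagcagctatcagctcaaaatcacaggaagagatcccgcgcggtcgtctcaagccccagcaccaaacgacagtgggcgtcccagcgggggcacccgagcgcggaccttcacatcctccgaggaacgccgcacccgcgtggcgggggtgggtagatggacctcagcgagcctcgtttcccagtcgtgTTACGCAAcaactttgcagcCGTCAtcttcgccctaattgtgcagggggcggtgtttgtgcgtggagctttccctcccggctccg
NRIP1 promoter, chr21:15065887-15066186, minus strand: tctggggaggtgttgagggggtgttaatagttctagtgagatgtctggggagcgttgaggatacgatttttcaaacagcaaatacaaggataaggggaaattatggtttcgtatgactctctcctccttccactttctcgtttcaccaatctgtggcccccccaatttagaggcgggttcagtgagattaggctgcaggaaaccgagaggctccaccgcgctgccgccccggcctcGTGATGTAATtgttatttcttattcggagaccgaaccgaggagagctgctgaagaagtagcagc
HIVEP2 promoter, chr6:142945127-142945426, minus strand: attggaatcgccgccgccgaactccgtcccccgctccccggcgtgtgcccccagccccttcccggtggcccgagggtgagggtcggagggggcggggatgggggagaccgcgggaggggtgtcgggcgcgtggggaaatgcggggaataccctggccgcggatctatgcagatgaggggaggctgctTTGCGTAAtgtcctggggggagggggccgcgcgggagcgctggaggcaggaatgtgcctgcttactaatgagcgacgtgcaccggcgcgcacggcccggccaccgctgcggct

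The letters searched on both strands were TTGCNNAA for C/EBP, TGANTCA for AP-1, TGACG for the core of the cAMP response element (CRE) and TATAAA for the TATA box; the palindromic glucocorticoid response element and the kappaB, CArG and E4BP4 consensus sequences were searched by their usual degenerate letters. In NFIL3 the C/EBP letters TTACGCAA began 35 bases before the start, and a CRE core lay 20 bases further on. In HIVEP2 the C/EBP letters TTGCGTAA began 63 bases before the start. C/EBP letters were also found at 1 of the 7 starts listed for NR3C1, so that 3 of 18 windows held them, against 10.46% of all 35116 windows. NR3C1 alone gives 7 of the 18, and some windows of the same gene overlap, so the windows are not separate units. NRIP1 held E4BP4 letters, GTGATGTAAT, from 14 bases before 1 of its 3 starts, a match present in 0.69% of all windows. CEBPB held TATAAA from 29 bases and a CRE core from 57 bases before its second start, where 11.53% and 24.55% of all windows hold these letters. A kappaB match at 186 bases before that CEBPB start, which overlapped another by all but 1 base, lay in a run of G and C only.

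KappaB letters were found in 3 of 18 windows, 1 each of CEBPB, KDM6B and NR3C1, against 11.27% of all windows. CRE cores were found in 6 of 18, against 24.55%. Beside those of CEBPB and NFIL3, CRE cores began 191 and 149 bases before NRIP1 start 1. In NR3C1 they began 110, 1 and 15 bases before starts 2, 5 and 6. AP-1 letters, searched with any middle base allowed, occurred at 1 NR3C1 start as TGAATCA (7.71% of all windows). Neither the glucocorticoid response element (0.39% of all windows) nor CArG (1.29%) had a match in the 18. GC content ran from 34.7% to 83.0% over the 18 windows, beside a median of 58.7% over all windows; the matches were not adjusted for it. A match is a description of letters and not a binding site, and the arrays do not show which start was used.

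**Figure D2:**
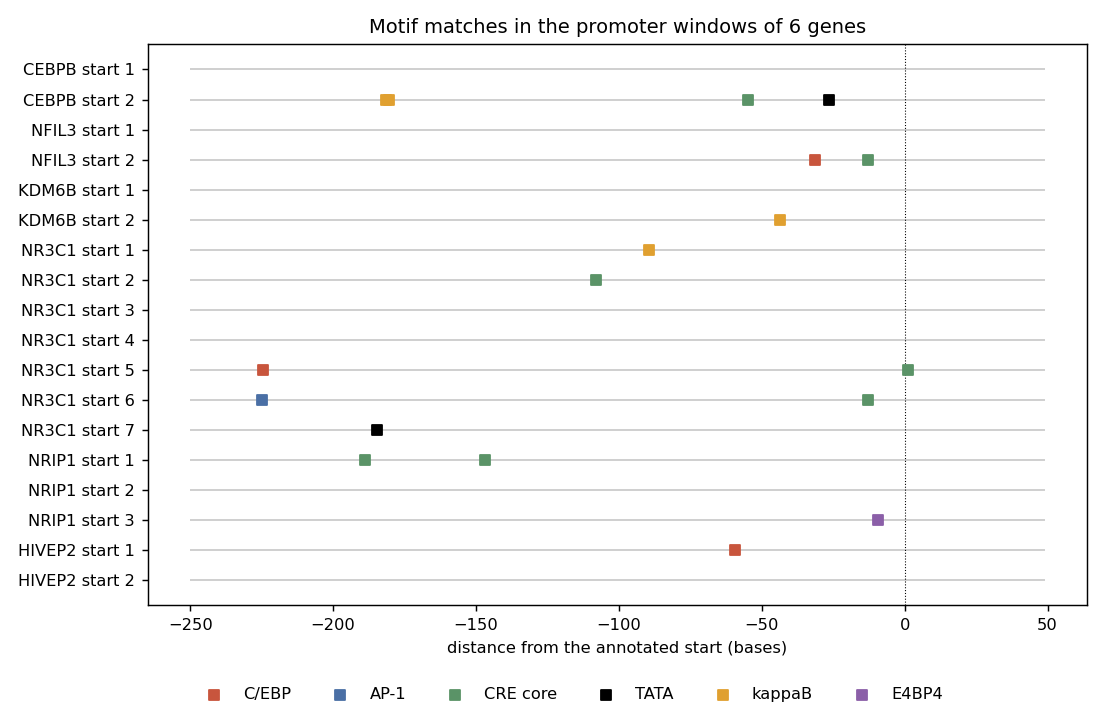
Matches to the searched motifs (coloured squares, placed at their centre) by distance in bases from the annotated start (horizontal axis) in the 18 promoter windows of 6 genes, with starts of a gene numbered by position on the chromosome. C/EBP letters sit at NFIL3 start 2, NR3C1 start 5 and HIVEP2 start 1, and the E4BP4 match sits at NRIP1 start 3.

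KDM6B, also called JMJD3, encodes a histone demethylase that is induced by inflammatory stimuli in macrophages and takes part in epidermal differentiation. Its log2 signal was 8.57, 8.60 and 8.61 in the control samples and 10.93, 11.00 and 10.91 in the M1 samples. The values of each group lay within 0.09 of each other, while the groups stood 2.30 apart at their closest. The mean difference was 2.35 ± 0.06 (SE) on the log2 scale, 5.11-fold, the largest of the 8 genes and place 35 among the 303 higher probe sets of the authors' deposited table. Its probe set, 16830754, lies on chromosome 17, plus strand, from 7743222 to 7758118 in that table.

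NR3C1 encodes the glucocorticoid receptor, the target of cortisol and of anti-inflammatory steroids. Its log2 signal was 9.05, 9.13 and 9.09 in the control samples and 9.84, 9.86 and 9.89 in the M1 samples. This was the smallest difference of the 8 genes, 0.78 ± 0.05 (SE) on the log2 scale or 1.71-fold, with the smallest spread among M1 samples (SD 0.02, n = 3). It took place 286 of the 303 higher probe sets. Its probe set, 17001100, lies on the minus strand of chromosome 5 from 142657496 to 142815077 in the authors' deposited table.

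NRIP1 encodes RIP140, which mostly represses genes bound by nuclear receptors and acts as a coactivator of NF-kappaB in mouse macrophages. Its log2 signal was 10.01, 10.08 and 10.11 in the control samples and 11.05, 11.08 and 11.24 in the M1 samples. The M1 sample at 11.24 stood above the other two, and the groups were 0.94 apart at their closest. The mean difference was 1.06 ± 0.07 (SE) on the log2 scale, 2.08-fold. Its probe set, 16924268, lies on the minus strand of chromosome 21 from 16333556 to 16437321 in the authors' deposited table.

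HIVEP1 and HIVEP2 are paralogues whose products bind the kappaB motif and related enhancer sequences, and in mice loss of Hivep2 raises NF-kappaB activity. The log2 signal of HIVEP1 was 8.69, 8.79 and 8.71 in the control samples and 9.57, 9.50 and 9.66 in the M1 samples, a difference of 0.85 ± 0.07 (SE) or 1.80-fold. The log2 signal of HIVEP2 was 10.43, 10.56 and 10.57 in the control samples and 11.53, 11.47 and 11.48 in the M1 samples, a difference of 0.97 ± 0.06 (SE) or 1.96-fold. The changes of these paralogues were 0.12 apart, with a combined SE of 0.09. Their closest samples were 0.71 and 0.90 apart between the groups. Both lie on chromosome 6 in the authors' deposited table, HIVEP1 (probe set 17004879) on the plus strand from 12002391 to 12165232 and HIVEP2 (probe set 17024335) on the minus strand from 143072604 to 143266338. The third gene of the family, HIVEP3, was not in the table.

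NFAT5, also called TonEBP, encodes the factor that switches on osmoprotective genes in hypertonic medium and that also takes part in inflammatory gene expression in macrophages. Its log2 signal was 8.97, 9.06 and 9.01 in the control samples and 10.38, 10.34 and 10.25 in the M1 samples. The groups were 1.20 apart at their closest, and the mean difference was 1.31 ± 0.06 (SE) on the log2 scale, 2.48-fold. Its probe set, 16820601, lies on chromosome 16, plus strand, from 69598997 to 69739018 in the authors' deposited table.

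Ordered by size of change, KDM6B came first, followed by NFIL3, NFAT5, CEBPB, NRIP1, HIVEP2, HIVEP1 and NR3C1. KDM6B exceeded NFIL3 by 0.75 (combined SE 0.09) and NFIL3 exceeded NFAT5 by 0.29 (combined SE 0.09) on the log2 scale. From NFAT5 downward each gene differed from the next by 0.07 to 0.16, with combined SEs of 0.09 to 0.11, so the order among these 6 is given as a description. Within the groups the 8 genes did not all lean the same way. Control replicate 1 gave the lowest control value for 7 of the 8 and the highest for CEBPB, while M1 replicate 3 gave the lowest M1 value for 4 and the highest for 3. Deviations from the group mean reached at most 0.12 either way, against differences between groups of 0.78 or more.

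**Figure D3:**
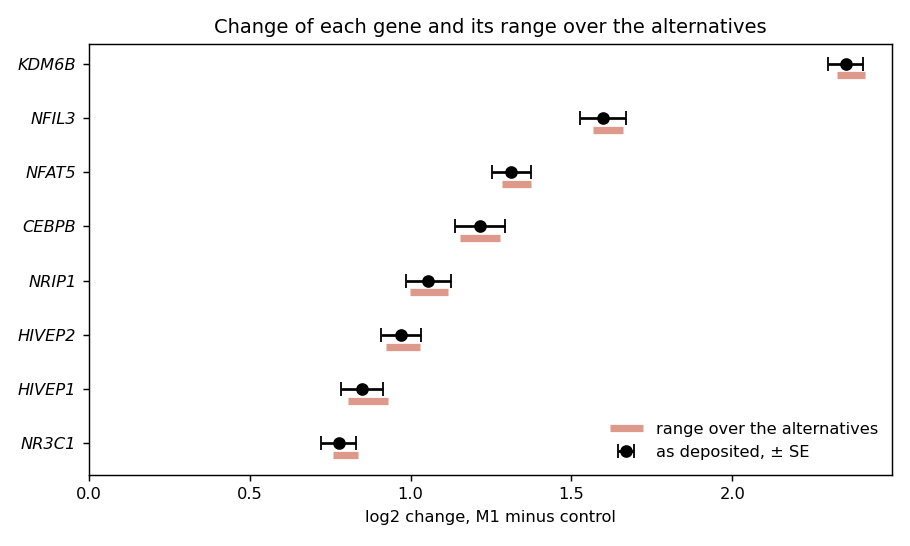
Log2 change, M1 minus control (horizontal axis), of each gene as deposited with its SE (black) and its range over 12 alternative settings (red). All ranges lie above 0, from 0.76 to 0.84 for NR3C1 to 2.33 to 2.41 for KDM6B.

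Of the values that had selected the probe sets, the score of the significance analysis of microarrays (SAM) put the 8 genes in the same order. The score has the same difference of group means as its numerator, so the shared order adds no support. The SAM score, a moderated ratio of difference to spread, was 3.37 for KDM6B, 2.18 for NFIL3, 1.84 for NFAT5 and 1.63 for CEBPB in the authors' deposited table. The scores of NRIP1 (1.44), HIVEP2 (1.35), HIVEP1 (1.17) and NR3C1 (1.12) were lower in the authors' deposited table, whose lowest score among higher probe sets was 1.03. The p-values of the 8 in the authors' deposited table ran from 1.44e-05 for KDM6B to 0.000546 for HIVEP2, and the largest listed there was 0.000999. By score NR3C1 and HIVEP1 were the nearest of the 8 to that lower edge, and by p-value HIVEP2 was the nearest to the largest listed.

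**Figure D4:**
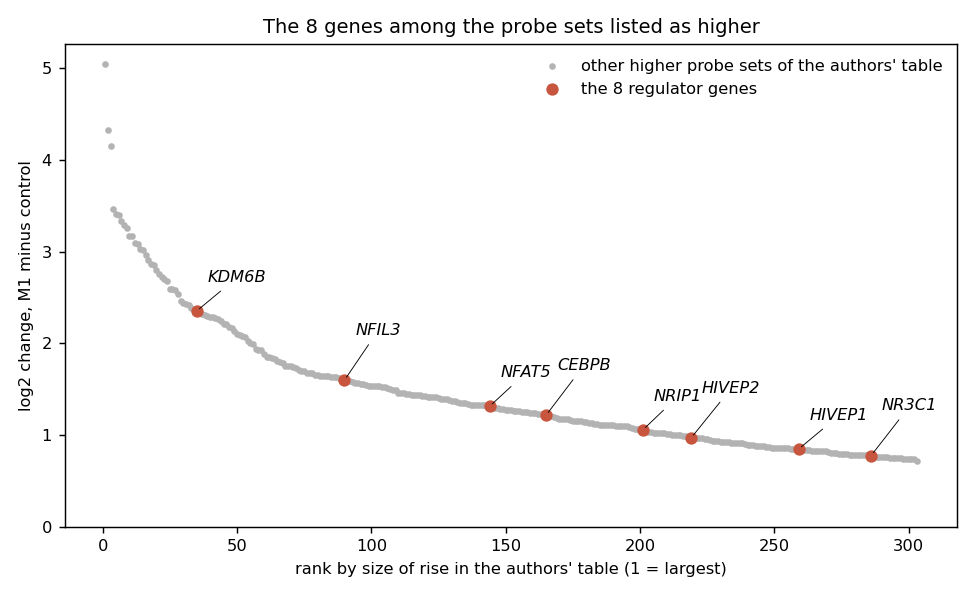
Log2 change, M1 minus control (vertical axis), of the 303 higher probe sets of the authors' table by rank (horizontal axis), with the 8 genes in red. They are spread from place 35 (KDM6B) to place 286 (NR3C1).

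The choice of genes did not use their length, which differed widely. HIVEP2 (194 kb), HIVEP1 (163 kb), NR3C1 (158 kb), NFAT5 (140 kb) and NRIP1 (104 kb) each spanned over 100 kb in the authors' deposited table, while KDM6B and NFIL3 spanned 14.9 and 14.8 kb and CEBPB 2.11 kb. Thus 62.5% of the 8 genes spanned over 100 kb, a limit chosen after the values were seen, against 13.5% (41) of the 303 higher probe sets. The median span was 122 kb for the 8 genes and 15.9 kb for the 303. The 3 short genes included the first and second by size of change, and among the 303 the median log2 change was 1.11 for spans over 100 kb and 1.33 for the others. In the annotation of the authors' deposited table the 8 were all assigned to the nucleus, as were 48.4% of its higher probe sets with a location. The term for negative regulation of transcription from RNA polymerase II promoters covered KDM6B, NRIP1 and HIVEP1 (5.2% of the higher probe sets with such terms), and the matching positive term covered CEBPB and NRIP1 (7.5%). Transcription corepressor activity covered NFIL3 and NRIP1 (4.3%), and inflammatory response covered CEBPB and KDM6B (5.2%).

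Genes related to each regulator were looked up by list in the authors' table, where every gene found was higher with M1 protein; these were selected on the same arrays too, and genes not found have no named value here. Over all probe sets, 2.25% were in the table. Of 6 other genes of the C/EBP family and its partners, DDIT3, which encodes the stress factor CHOP (log2 change 1.84 ± 0.10 SE), and CEBPD (0.79 ± 0.07 SE) were there. None of the 3 PAR leucine zipper genes DBP, TEF and HLF, whose products bind the same DNA sequence as NFIL3, was there. Of 14 inflammatory targets of C/EBP-beta, 4 were there, all chemokine or cytokine genes: CXCL8 at 5.05, CCL20 at 4.33, CXCL1 at 3.33 and IL1B at 2.24 on the log2 scale. The control means of CCL20 and CXCL1, 4.43 and 5.31, lay below the 25th percentile of the arrays, which makes the size of their changes less certain.

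Among 22 other JmjC histone demethylase genes, KDM7A, which acts on repressive histone marks, went from a log2 signal of 8.82 ± 0.12 to one of 11.09 ± 0.04 in the treated samples (SD, n = 3 each), 4.82-fold, close to KDM6B's 5.11-fold. JMJD1C was 2.36-fold higher, and the closest relative of KDM6B, KDM6A, was not in the table. Of 21 other nuclear receptor genes the clock repressor NR1D1 was there (log2 change 1.94 ± 0.08 SE), and of 14 other coregulators of such receptors 0 were there. Of 13 genes known to be induced by the glucocorticoid receptor, 5 were there: the phosphatase gene DUSP1 at 2.96, the mRNA-decay gene ZFP36 at 2.18, the clock gene PER1 at 1.56, the kinase gene SGK1 at 1.15 and CEBPD at 0.79 on the log2 scale. FKBP5 and TSC22D3, markers of glucocorticoid action in many cell types, were not in it.

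NFAT5's relatives with a Rel-type domain gave 3 of 9 genes: REL (log2 change 1.29 ± 0.08 SE), NFKB1 (0.94 ± 0.07 SE) and NFKB2 (0.75 ± 0.05 SE). The change of NFAT5, 1.31 ± 0.06 (SE), was next to that of REL. Of 7 osmoprotective targets of NFAT5, among them the transporter genes SLC5A3 and SLC6A6 and the aldose reductase gene AKR1B1, 0 were in the table. A gene missing from the table may still have changed, since 32.8% of all probe sets passed the limma test (adjusted p under 0.05) and most of them are unnamed.

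**Figure D5:**
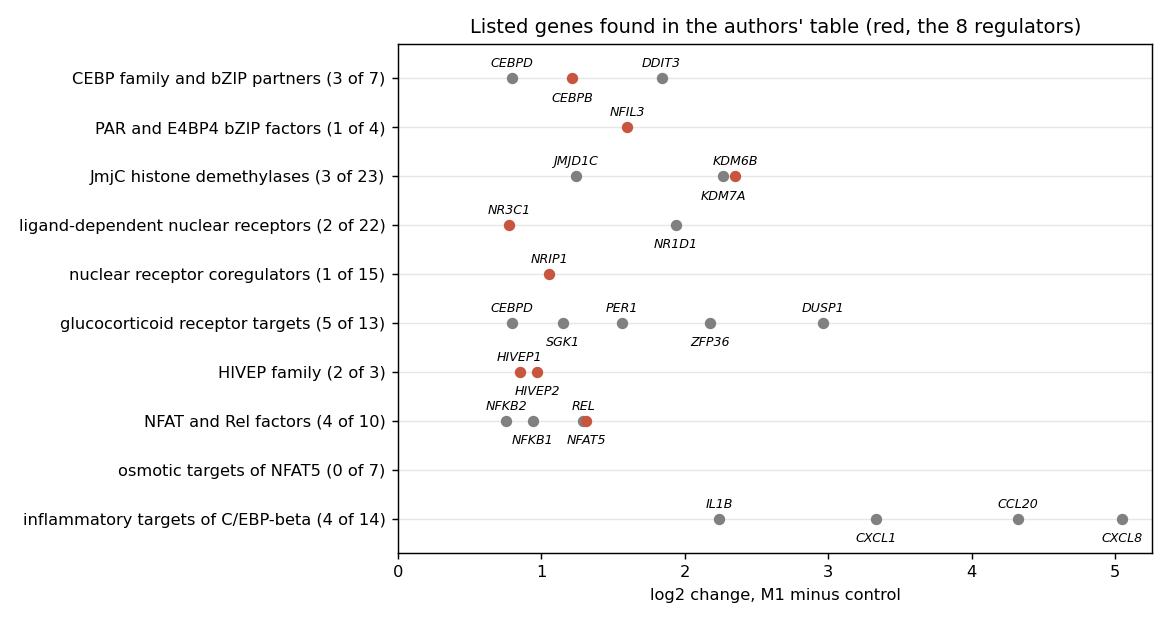
Log2 change, M1 minus control (horizontal axis), of the genes of each of 10 lists that were in the authors' table, with the 8 regulators in red and the number found of the list's size beside its name. All points lie above 0, from 0.75 for NFKB2 to 5.05 for CXCL8.

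Among the other named genes of the table, those with the profile nearest to each regulator over the 6 arrays were found by the distance between signals counted from the control mean. ENTPD7, which encodes a nucleotide hydrolase, lay 0.035 log2 units from NFAT5, the closest of all, followed by KLF16 at 0.042 from NR3C1. MYC, at 0.083, was the second nearest to NFAT5, with a log2 change of 1.31 beside 1.31. CEBPB was nearest to the cyclin gene CCNG2 (0.10) and the urokinase receptor gene PLAUR (0.124). NFIL3 was nearest to RND3 (0.088) and ITPRIP (0.092). The nearest gene to KDM6B, the Wnt receptor gene FZD8, was farther off (0.141) than the nearest gene to any other of the 8. NRIP1 was nearest to the zinc exporter gene SLC30A1 and SPOPL, HIVEP1 to NIPAL1 and PRDM10, HIVEP2 to PPTC7 and EHD4, and NR3C1 also to SINHCAF. With 3 samples a group this likeness reflects mainly an equal size of change.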

How the data were processed

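Total RNA of 6 HaCaT samples was measured on Affymetrix arrays. Per the submitters' processing notes, the deposited log2 signals come from RMA in Affymetrix Expression Console 1.1.2; RMA corrects background, normalises arrays together and summarises each probe set, which compresses low signals. Per the file headers, the authors' table of 497 probe sets gives a SAM score, a fold change as a ratio of unlogged means, a signed fold score, a q-value as a percent (0 throughout) and a t-test p-value with an alpha of 0.01. Its signals were identical to the value table.

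Symbols came from that table and were updated through accessions against RefSeq (476 of 497 matched). All 22119 probe sets were fitted with limma 3.58.1 in R 4.3.3 (lmFit, eBayes, Benjamini-Hochberg), unfiltered, giving each SE; the fit was tested on simulated data. The number of arrays limits the precision. The named genes were the 8 regulators, for each the 2 nearest profiles (1 such gene is not reported here), and up to 4 genes of each of 10 lists (5 are named for glucocorticoid receptor targets, 1 beyond the rule); the members and lists were chosen with earlier results of these data known. Motifs were searched in RefSeq promoter windows with Python 3.11.15. Alternatives covered normalization, filtering, variance priors, array weights, a replicate block, a fold limit, another test and each sample left out.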

Additional observations from a re-analysis of the deposited data

How the results depend on the processing

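Over 12 alternatives per gene, 96 values in all, 0 of the 8 changes reversed and 90 moved by less than 1 SD of the replicates. Of these, 16 could not move, since neither the replicate block nor the filter changes a difference of means. As the groups do not overlap, leaving out samples could not reverse them. The other 6 moved further: with median centring KDM6B came to 2.41, NR3C1 to 0.84, HIVEP2 to 1.03 and NFAT5 to 1.37, and with quantile normalization NR3C1 came to 0.82 and HIVEP1 to 0.93. Centring moved the median change of all probe sets from 0.00315 to 0.0644, so a shift of that size is common to all genes. Over all probe sets limma called 7245 (2555 higher, 4690 lower), and 7248 after median centring (3578 higher, 3670 lower). The 1.5-fold limit left 2088 (790 higher, 1298 lower), fewer by construction. Leaving out each sample in turn gave 5386 to 6763. A replicate block in the fit gave 5821 calls; deviations of same-numbered samples correlated at -0.12, -0.12 and -0.0011, so the numbers were not taken to pair the samples. Ranking neighbours by Pearson's r in place of distance kept 2 of the 16 nearest genes, so these names depend on the measure. Searching 1 strand lowered the share of windows from 10.46% to 5.44% for C/EBP letters, 24.55% to 14.58% for the CRE core, 11.53% to 7.33% for TATAAA, 11.27% to 8.4% for kappaB and 0.69% to 0.38% for E4BP4; the AP-1, glucocorticoid response element and CArG shares stayed as they were.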
